A study of Mus musculus with 6 samples.

Results

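The genes described here are 9 regulators and receptors of the renal stroma, the connective tissue that surrounds the nephrons and the ureteric tree: Foxd1, Meis1, Meis2, Tbx18, Alx1, Penk, Ntn1, Pdgfra and Pdgfrb. They were read from bead arrays of whole mouse kidneys from embryos at stage E13.5, and all probes that the platform annotation assigns to them were taken, 15 of 45281. These probes cover 8 of the 9 genes, since no probe is listed under Ntn1, a secreted guidance ligand of stromal progenitors, which was not analysed here. Of the 6 arrays 3 carried control samples and 3 carried samples labelled YapCM-/-, and both groups share a mixed strain of C57BL/6 and 129S1/SvImJ. The control genotype is not described further. CM is not spelled out in the labels. As the study is known, it means cap mesenchyme, the nephron progenitors, where Six2-driven Cre removed Yap. By that account the stroma itself was not the tissue in which the gene was deleted, and the comparison asks whether stromal transcripts differ when Yap is lost from the neighbouring progenitors.

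Stromal progenitors lie around the cap mesenchyme and give rise to interstitial fibroblasts, pericytes, vascular smooth muscle and the mesangium. They also send signals to the nephron progenitors, and loss of Foxd1 or of the stromal protocadherin Fat4 is known to change how those progenitors differentiate. Inside progenitors, Yap is a transcriptional coactivator that Hippo kinases hold in check.

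Values are log2 signals with a median of 7.30 on each array, normalised by the authors so that the 6 arrays have nearly the same distribution. Probes near that median are dim, and their differences understate a change in transcript. Across probes, which are no independent replicates, the arrays correlated at 0.983 to 0.993. The labels do not say whether replicates are separate embryos or litters, so a p-value here reflects only how these samples scatter, possibly for technical reasons. The deleted gene, Yap1, had a log2 difference of -0.86 (SE 0.093, adjusted p = 0.0102 in limma), with every YapCM-/- array below every control array.

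Of the 15 stromal probes, 14 were bright enough to be tested, and 0 of them passed an adjusted p of 0.05 in limma. Over all 22640 tested probes, 0.177% passed. At an unadjusted p under 0.05 stood 2 of the 14, those of Pdgfrb and of the brightest Meis2 probe, both lower in YapCM-/- kidneys, which is 14.3% against 11.5% of all tested probes. The groups did not overlap at the same 2 probes, again 14.3%, against 16.5% of all tested probes. These shares of probes are near the background. Among the 14 probes 9 were higher and 5 lower, with a median log2 difference of 0.046. Within the range from -0.31 to 0.30, which holds 95% of all tested probes, lay 11 of them. With the brightest probe for each of the 8 genes, 4 were higher and 4 lower, with a median of 0.0019. On that count 2 of 8 stood at an unadjusted p under 0.05 in limma, both lower, against 6.86% of all tested genes on that side. In RNA of whole kidneys, fewer stromal cells and less RNA per cell cannot be told apart.

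**Figure D1:**
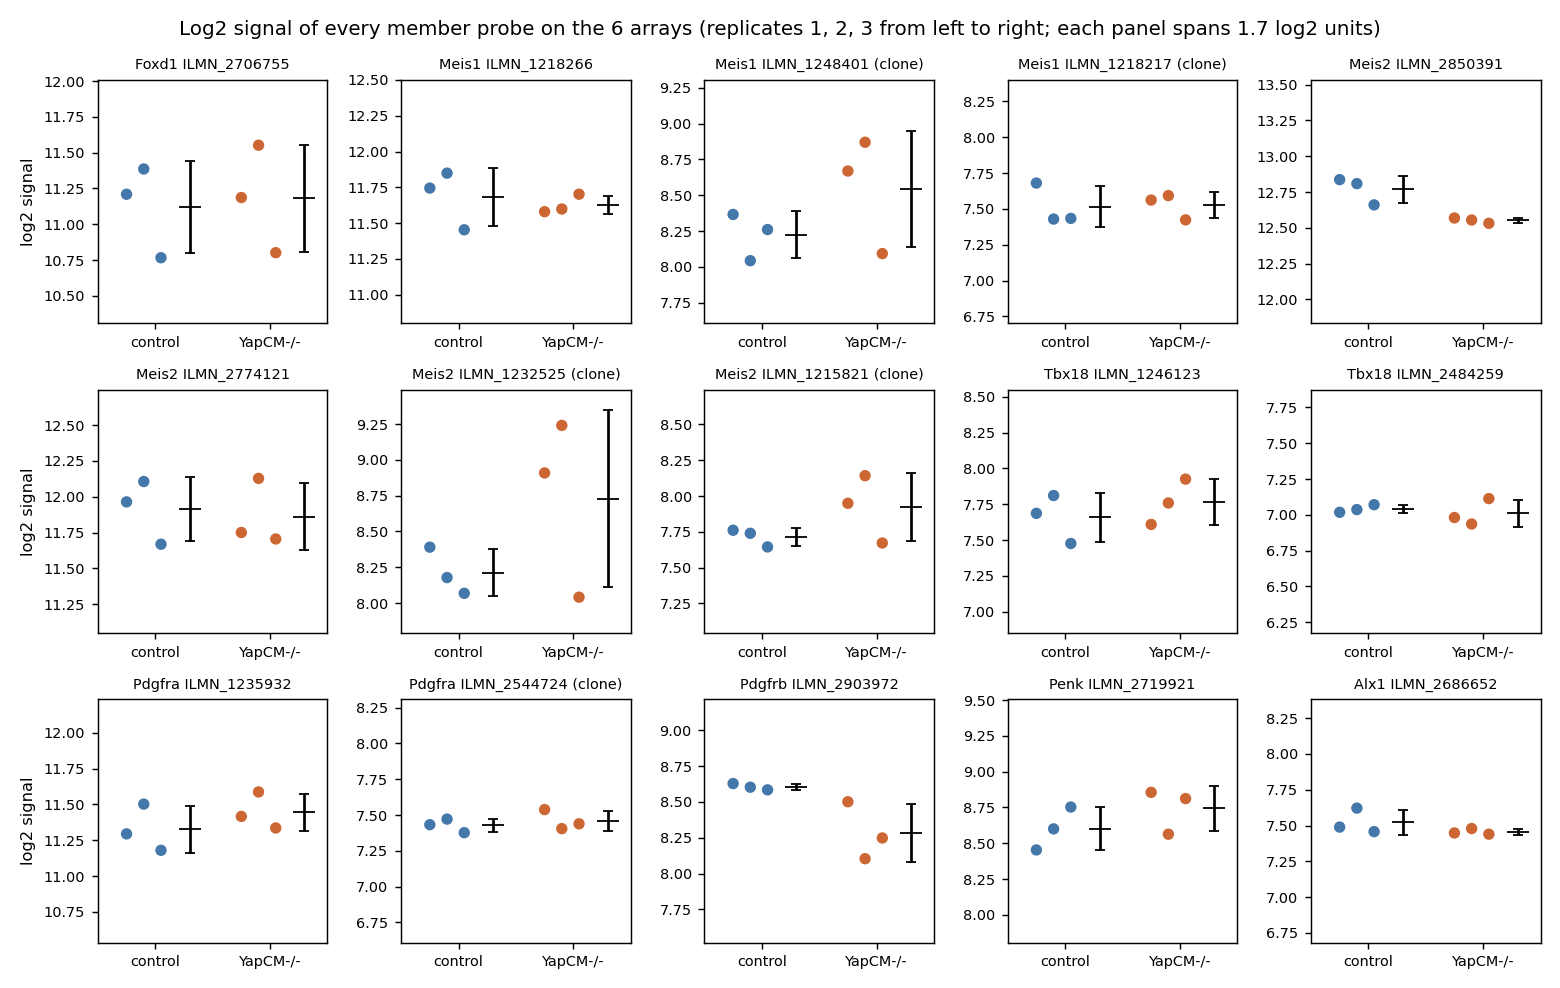
Log2 signal (vertical axis) of each of the 15 probes on the 6 arrays. Points are single arrays, blue for control and orange for YapCM-/-, with replicates 1, 2 and 3 from left to right, and bars give the mean and SD (n = 3). The groups are separate for Pdgfrb and for the brightest Meis2 probe, while the Foxd1 points of both groups cover the same range.

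Foxd1, the forkhead factor that marks stromal progenitors of the cortex, had 1 probe (ILMN_2706755). Its log2 signal was 11.21, 11.39 and 10.77 in control replicates 1, 2 and 3, and 11.19, 11.55 and 10.80 in the YapCM-/- replicates of the same numbers. The groups covered the same range, with replicate 3 lowest and replicate 2 highest in each. The means were 11.12 ± 0.32 and 11.18 ± 0.38 (SD, n = 3 each), a log2 difference of 0.059 (SE 0.194, adjusted p = 0.944). The 95% interval ran from -0.37 to 0.49, so YapCM-/- levels between 0.772-fold and 1.41-fold of control were compatible with these arrays. The spread within groups, a pooled SD of 0.35, was larger than that of 98.9% of tested probes. Leaving out control replicate 3 gave -0.12, and leaving out YapCM-/- replicate 3 gave 0.25.

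Promoter windows of 300 bases ran from 250 before to 50 after the start site (RefSeq, GRCm38.p6). They were taken for 5 members: Foxd1, Meis1, Meis2, Pdgfra and Tbx18. Other members were not searched, and the member search excluded a chromosome that the background windows did not exclude. The 5 windows were searched on both strands for TGACAG, the core letters that MEIS proteins bind, because Meis1 and Meis2 are themselves members. They were also searched for GGAATG, the core of the TEAD factors through which Yap acts on DNA. The MEIS letters occurred once each in the windows of Foxd1, Pdgfra and Tbx18, 3 of 5, against 19.2% of 32851 windows. The TEAD letters occurred in 0 of 5, against 14.7%. A match is a run of letters and not a shown site. The whole Foxd1 window and the surroundings of the other matches are printed with the MEIS letters in capitals. Only these 3 of the 5 searched windows hold a match. They lie at chr13:98353995-98354294 (plus strand), chr5:75152221-75152280 (plus strand) and chr9:87731211-87731269 (minus strand).
Foxd1: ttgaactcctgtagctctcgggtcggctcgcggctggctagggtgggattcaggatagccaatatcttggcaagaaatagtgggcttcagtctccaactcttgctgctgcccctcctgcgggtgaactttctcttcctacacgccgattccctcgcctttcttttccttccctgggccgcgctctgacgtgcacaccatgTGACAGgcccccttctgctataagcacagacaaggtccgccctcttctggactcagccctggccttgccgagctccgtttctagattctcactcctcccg
Pdgfra: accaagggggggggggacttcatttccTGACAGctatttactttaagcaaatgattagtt
Tbx18: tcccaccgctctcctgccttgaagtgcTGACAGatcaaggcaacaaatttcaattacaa
The letters begin 50 bases before the start site in Foxd1, 3 bases before it in Pdgfra and 18 bases after it in Tbx18.

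Meis1 and Meis2 encode TALE homeobox factors found across the kidney stroma. Their probes for the curated RefSeq transcripts were bright, with small differences. Meis1 (ILMN_1218266) read 11.75, 11.85 and 11.45 in control and 11.58, 11.60 and 11.70 in YapCM-/- kidneys, so that the YapCM-/- arrays lay inside the control range. The log2 difference was -0.056 (SE 0.106, 95% interval -0.29 to 0.18, adjusted p = 0.897).

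The brightest Meis2 probe (ILMN_2850391) read 12.84, 12.81 and 12.66 in control and 12.57, 12.55 and 12.53 in YapCM-/- kidneys. All YapCM-/- arrays were below all control arrays. The difference was -0.22 (SE 0.079, 95% interval -0.39 to -0.041), a control level 1.16-fold that of YapCM-/-, and did not pass (adjusted p = 0.338). A further probe of the same RefSeq transcript (ILMN_2774121) read 11.96, 12.11 and 11.67 against 11.75, 12.13 and 11.71. There the groups overlapped and the difference was -0.052 (SE 0.138, adjusted p = 0.930).

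The remaining Meis probes are matched in the annotation to cDNA clones, with GenBank accessions that start with AK, and are shown separately for that reason. Meis2 probe ILMN_1232525 read 8.39, 8.18 and 8.07 in control and 8.91, 9.24 and 8.04 in YapCM-/- kidneys. YapCM-/- replicates 1 and 2 stood above the other 4 arrays, and replicate 3 was the lowest of all 6. The difference of 0.52 (SE 0.245, 95% interval -0.030 to 1.07) was the largest of the 14 probes and did not pass (adjusted p = 0.467). Its pooled SD exceeded that of 99.6% of tested probes. Without YapCM-/- replicate 3 it was 0.86 (adjusted p = 0.0832), and without YapCM-/- replicate 2 it was 0.26. With the background subtracted it was 0.76 (adjusted p = 0.621).

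Meis1 probe ILMN_1248401 had the same pair of arrays on top, with 8.37, 8.04 and 8.26 in control and 8.67, 8.87 and 8.09 in YapCM-/- kidneys. Its difference was 0.32 (SE 0.175, adjusted p = 0.533), and leaving out YapCM-/- replicate 3 gave 0.55 (adjusted p = 0.167), YapCM-/- replicate 2 gave 0.16. Meis2 probe ILMN_1215821 followed with 7.76, 7.74 and 7.64 against 7.95, 8.14 and 7.67, a difference of 0.21 (SE 0.114, adjusted p = 0.542) that ran from 0.095 without YapCM-/- replicate 2 to 0.33 without YapCM-/- replicate 3. The dim Meis1 probe ILMN_1218217 was at 0.012 (adjusted p = 0.978), with highest signal in control replicate 1.

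Within an array, the Meis2 clone probe ILMN_1232525 minus the brightest Meis2 probe was -4.45, -4.63 and -4.59 in control and -3.66, -3.31 and -4.49 in YapCM-/- kidneys. The groups overlapped, and the difference of 0.73 between group means gave p = 0.2 by an exact two-sided permutation test, where the smallest p that 3 against 3 allows is 0.1. For Meis1 probe ILMN_1248401 against the brightest Meis1 probe the difference was 0.38 (exact p = 0.3). These contrasts were chosen after their values were seen. Averaged over its tested probes, Meis2 was at 0.11 (adjusted p = 0.798) and Meis1 at 0.092 (adjusted p = 0.764), so the sign of both genes depends on which probes stand for them.

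**Figure D2:**
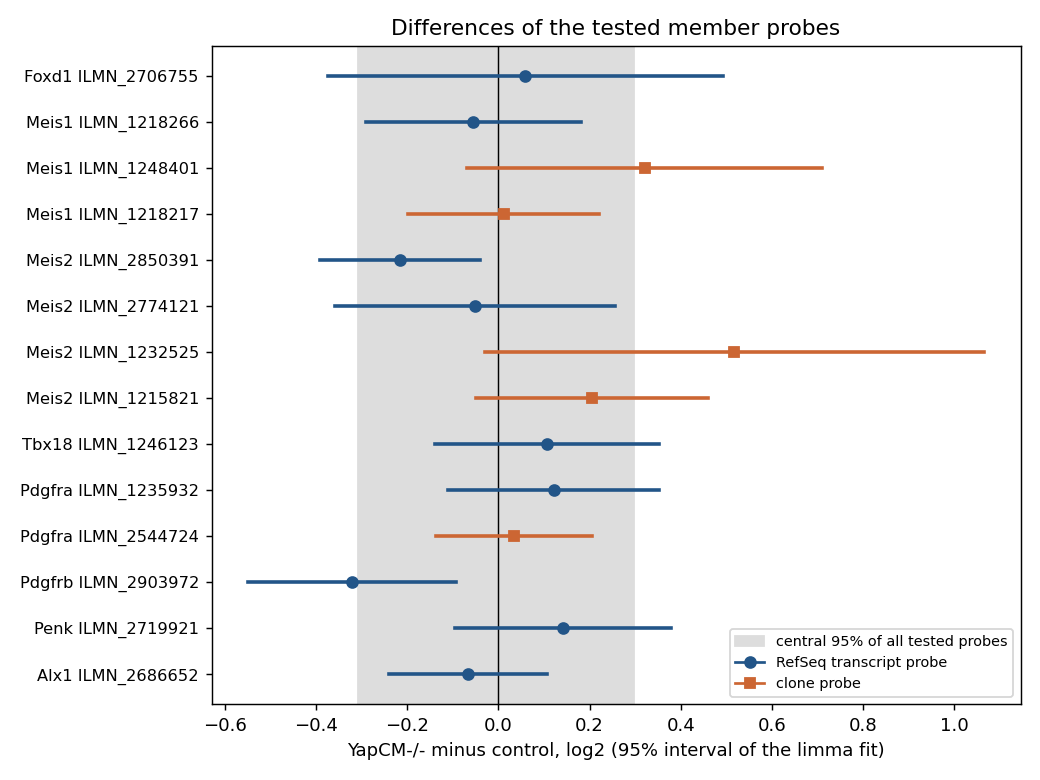
Log2 difference, YapCM-/- minus control (horizontal axis), with its 95% interval for the 14 tested probes. Blue circles are probes of RefSeq transcripts, orange squares are clone probes, and the grey band holds 95% of all tested probes. The interval excludes 0 at Pdgfrb and the brightest Meis2 probe, and the widest interval is that of a Meis2 clone probe at 0.52.

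Tbx18, a T-box factor of the mesenchyme around the ureter, was dim. Its tested probe (ILMN_1246123) read 7.69, 7.81 and 7.48 in control and 7.61, 7.76 and 7.93 in YapCM-/- kidneys, with overlapping groups. The difference was 0.11 (SE 0.110, 95% interval -0.14 to 0.35, adjusted p = 0.778). With 1 array left out it lay between 0.016, without control replicate 3, and 0.18. The further Tbx18 probe (ILMN_2484259) lay below the median, between 6.94 and 7.11 on all 6 arrays, and was not tested. In the fit without a filter on dim probes it was at -0.032 (SE 0.064, adjusted p = 0.948).

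Alx1, a paired-type homeobox gene of the medullary stroma, was close to the array median (ILMN_2686652). It read 7.49, 7.62 and 7.46 in control and 7.45, 7.48 and 7.44 in YapCM-/- kidneys. The groups overlapped, and the difference was -0.067 (SE 0.078, 95% interval -0.24 to 0.11, adjusted p = 0.805). Leaving out single arrays gave -0.10 to -0.018, the latter without control replicate 2.

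Penk encodes the precursor of the enkephalin peptides and marks inner stromal cells of the developing kidney. Probe ILMN_2719921 read 8.45, 8.60 and 8.75 in control and 8.86, 8.56 and 8.81 in YapCM-/- kidneys. YapCM-/- replicate 2 lay inside the control range and the others above it. The difference was 0.14 (SE 0.106, 95% interval -0.096 to 0.38, adjusted p = 0.671). Left-out arrays moved it between 0.067, without control replicate 1, and 0.23, without YapCM-/- replicate 2.

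The receptors for platelet-derived growth factor stood on opposite sides of 0. Pdgfrb, the receptor of pericytes and mesangial cells (ILMN_2903972), read 8.63, 8.60 and 8.58 in control and 8.50, 8.10 and 8.25 in YapCM-/- kidneys. The control arrays lay close together, and all YapCM-/- arrays were below them. The means were 8.60 ± 0.022 and 8.28 ± 0.20 (SD, n = 3 each), a difference of -0.32 (SE 0.102, 95% interval -0.55 to -0.093) and a control level 1.25-fold that of YapCM-/-. It had the smallest p among the 14 probes and did not pass (adjusted p = 0.273). With 1 array left out, the difference stayed between -0.43 and -0.23, with adjusted p from 0.196 to 0.521. With the background subtracted it was -0.52 (adjusted p = 0.475).

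Pdgfra, the receptor carried broadly by stromal cells (ILMN_1235932), read 11.29, 11.50 and 11.18 in control and 11.42, 11.59 and 11.34 in YapCM-/- kidneys. The groups overlapped, and the difference was 0.12 (SE 0.104, 95% interval -0.11 to 0.35, adjusted p = 0.717). With 1 array left out it lay between 0.048, without control replicate 3, and 0.21, without control replicate 2. A dim clone probe (ILMN_2544724) was at 0.034 (SE 0.077, adjusted p = 0.919).

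Of 4 PDGF ligand genes 3 were tested and 0 passed, against 0.111% (higher) and 0.153% (lower) of all tested genes. The 3 ligand values were all below 0, with a median of -0.27 against 0.0039 over all 11762 tested genes. Pdgfc, a ligand of the alpha receptor, read 9.20, 9.22 and 9.07 in control and 8.74, 8.82 and 8.68 in YapCM-/- kidneys. The groups were separate. The difference was -0.42 (SE 0.080, 95% interval -0.60 to -0.24, adjusted p = 0.103), and a dimmer Pdgfc probe was at -0.13. Pdgfa was at -0.27 (SE 0.095, adjusted p = 0.330), also with separate groups. Groups separate on the lower side were found for 9.06% of all tested genes. Pdgfb, the main ligand of the beta receptor, was at -0.094 (adjusted p = 0.80) and is named only because it completes the tested ligands. With 1 array left out Pdgfb ran from -0.19 to 0.013, so its sign did not hold.

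Across the arrays, several members shared a pattern that did not follow the groups. Foxd1 and Meis2 probe ILMN_2774121 ordered the 6 arrays identically, from control replicate 3 at the bottom over YapCM-/- replicates 3 and 1 and control replicates 1 and 2 to YapCM-/- replicate 2 at the top. Taking the brightest probe of each of the 8 genes, control replicate 3 was the lowest array for 4, Foxd1, Meis1, Tbx18 and Pdgfra. The median deviation of those 8 probes from their own means was -0.12 on control replicate 3 and 0.14 on control replicate 2, while the YapCM-/- arrays lay between -0.050 and -0.0053. Among 18 other stromal genes, the median deviation was -0.12 on control replicate 3, 0.049 on control replicate 2 and 0.076 on YapCM-/- replicate 2. Over all tested genes it was 0.0012 on control replicate 3. Lists of other cell types ran on that array from -0.11 (erythroid) to 0.41 (podocyte), with neuron markers at -0.078, so low values there were not particular to stroma. The share of all tested genes with that array lowest was not counted. How far this between-array pattern bears on the differences was not tested beyond leaving out each array.

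**Figure D3:**
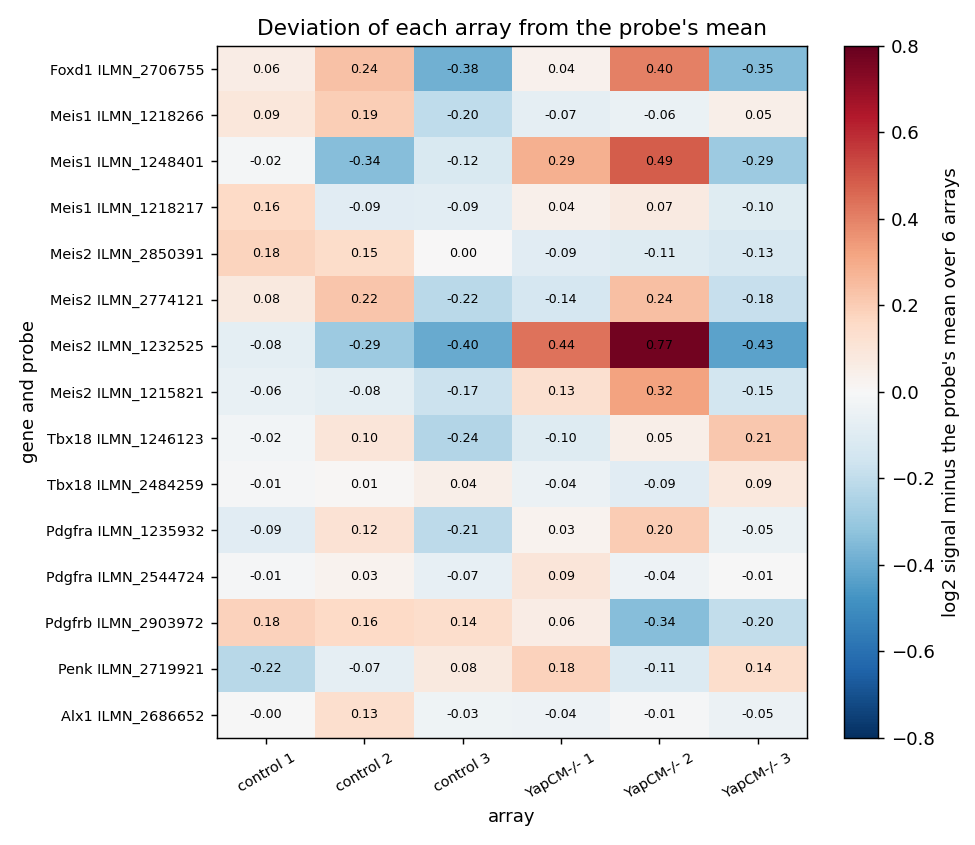
Log2 signal of each array (columns) minus the mean of the probe over all 6 arrays (rows are probes, colour and number give the deviation). Foxd1 stands at -0.38 on control replicate 3 and at -0.35 on YapCM-/- replicate 3, and the clone probes of Meis1 and Meis2 have their highest values on YapCM-/- replicate 2, apart from Meis1 probe ILMN_1218217.

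Wider stromal genes were read in the same way. Of 23 further genes of the interstitial stroma 18 were tested and 0 passed, with 7 above 0 and a median of -0.031. Over all 11762 tested genes, 0.111% passed higher and 0.153% lower, so 0 in a list this short is near that share. The same holds for the counts of 0 in the stromal and related lists that follow. At an unadjusted p under 0.05 stood 3 higher and 2 lower, while 6.60% and 6.86% of all tested genes stood there on the higher and the lower side. The collagen gene Col1a1 was at -0.35 (SE 0.087, adjusted p = 0.193) and the matrix protein gene Ecm1 at 0.33 (SE 0.081, adjusted p = 0.193), both with separate groups, and a dimmer Ecm1 probe was at 0.098. All 3 further genes of the medullary stroma were tested and 0 passed (median 0.19). Cdkn1c, the cell cycle inhibitor p57, was at 0.19 (adjusted p = 0.547) and Wnt4 at 0.19 (adjusted p = 0.630). Wnt4 is also made by early nephrons, so its level in whole kidneys is not that of the stroma alone.

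The derivatives of the stroma gave counts of the same kind. Of 8 tested genes of ureteric mesenchyme and smooth muscle 0 passed (median 0.045), and those with the smallest p were Des, the intermediate filament desmin, at -0.27 (adjusted p = 0.246) and the T-box factor Tbx3 at 0.26 (adjusted p = 0.307). Of 8 tested genes of mesangium, pericytes and renin cells 0 passed (median -0.049). There the surface protein gene Mcam was at -0.36 (SE 0.092, adjusted p = 0.197) and the integrin gene Itga8 at -0.23 (adjusted p = 0.381), with a dimmer Itga8 probe at 0.052. Their groups were separate on the lower side, which was so for 2 of the 8 genes and for 9.06% of all tested genes. Above 0 lay 3 of the 8, among them Gata3, which is also on the list of ureteric bud markers. As for Wnt4, levels of these genes in whole kidneys need not be those of stromal derivatives alone.

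Relatives and partners of the other members were tested in small numbers. Of 8 further TALE homeobox genes, relatives or partners of Meis, 7 were tested and 0 passed (median -0.071). Pknox1 was at -0.36 (adjusted p = 0.239) and Pknox2 at -0.22 (adjusted p = 0.405), and for each a further probe had the opposite sign, at 0.24 and 0.17. Among netrins and netrin receptors 6 of 10 were tested and 0 passed (median 0.042). The repulsive netrin receptor gene Unc5c was at -0.27 (adjusted p = 0.270) and Ntn3 at 0.33 (adjusted p = 0.312), with a further Ntn3 probe at -0.085. Of 11 genes for opioid peptides, their processing and receptors, 3 were tested and 0 passed (median -0.083), with Pdyn, prodynorphin, at -0.12 (adjusted p = 0.665; a dimmer probe at -0.40) and Cpe, a peptide-processing enzyme, at -0.083 (adjusted p = 0.734). Of 7 paralogs of Foxd1, Alx1 and Tbx18 only Alx4, at 0.085 (adjusted p = 0.748), and Foxd2, at -0.035 (adjusted p = 0.914), were bright enough to be tested, and their median was 0.025.

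**Figure D4:**
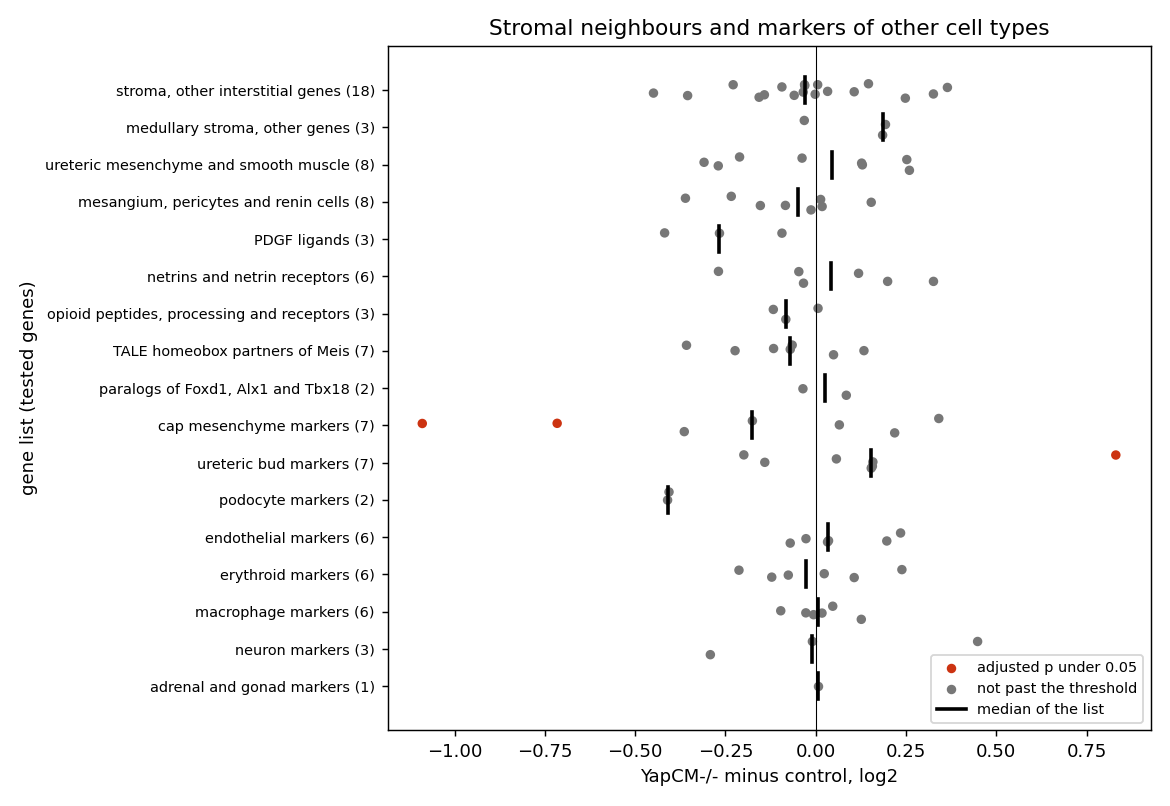
Log2 difference, YapCM-/- minus control (horizontal axis), of the tested genes of each list (rows, with the number of tested genes), 1 probe per gene. Red points passed an adjusted p of 0.05, grey points did not, and black bars are list medians. Red points appear for cap mesenchyme (Meox2 at -1.09, Cited1 at -0.72) and ureteric bud (Ret at 0.83) and for none of the stromal lists. Among all 11762 tested genes, 0.111% passed higher and 0.153% lower.

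Markers of other cell types were read from the same arrays. Of 7 tested cap mesenchyme markers 2 passed, both lower, against 0.153% of all tested genes that passed in that direction. They were Meox2, at -1.09 (adjusted p = 0.00175), and Cited1, at -0.72 (adjusted p = 0.00662). The list median was -0.18, and 3 of the 7 lay above 0. Outside the rule for named genes, and chosen after their values were seen, the progenitor factor Six2 was at -0.36 (adjusted p = 0.193) and Eya1 at 0.34 (adjusted p = 0.242), each with separate groups. Of 7 tested ureteric bud markers 1 passed, Ret, higher by 0.83 (adjusted p = 0.0147, list median 0.15), against 0.111% of all tested genes that passed upward. The 2 tested podocyte markers did not pass, Podxl at -0.41 (adjusted p = 0.230) and Synpo at -0.41 (adjusted p = 0.238), at a median of -0.41. Endothelial markers had 0 of 6 past the threshold (median 0.034), with Tek at 0.20 (adjusted p = 0.381) and Emcn at 0.24 (adjusted p = 0.426). Erythroid markers had 0 of 6 (median -0.026), with Hba-a1 at 0.24 (adjusted p = 0.462) and Alas2 at 0.11 (adjusted p = 0.773). Macrophage markers had 0 of 6 (median 0.0056), with Mrc1 at 0.13 (adjusted p = 0.620) and C1qb at -0.097 (adjusted p = 0.735). Neuron markers had 0 of 3 (median -0.0092), with Elavl4 at -0.29 (adjusted p = 0.223) and Stmn2 at 0.45 (adjusted p = 0.474). Of 6 adrenal and gonad markers only Cyp11a1 was tested, at 0.0060 (adjusted p = 0.988), and of 5 neural crest and glia markers 0 were bright enough.

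The tested genes whose values over the 6 arrays were most like those of Foxd1, by the root mean square difference of centred log2 profiles, were Itpripl2 at 0.059, Dusp6, a phosphatase of the ERK pathway, at 0.096, and Hnrnpa2b1 at 0.10. Each of them had replicate 3 lowest and replicate 2 highest in both groups, like Foxd1. The genes most like Pdgfrb were Mrpl12, a mitochondrial ribosomal protein, at 0.030, the kinase Stk25 at 0.031, and Ifitm1 at 0.035. Their log2 differences between groups were -0.33, -0.32 and -0.35, and none of these 3 passed (adjusted p = 0.231, 0.248 and 0.203). These likenesses, over 6 arrays, are given as a description.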

How the data were processed

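Total RNA of embryonic kidneys was, per the labels' protocols, read on Illumina bead arrays. The authors deposited log2 signals, 1 column per sample, and these were analysed. Their sorted values differ by at most 0.00608 between arrays, as after quantile normalization. Neither software nor background step is stated in the sources used here. A second deposited table, of unnormalized values, was left out, because none of its 12 columns of per-sample values has a name that matches the labels.

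Gene names came from the platform's annotation, which may be outdated: 34885 had 1 symbol, 18 several and 10378 none, and 34807 identifiers matched RefSeq. The 50% of probes with the highest mean (above 7.29) were tested. The 2 groups of 3 were compared in limma 3.58.1 (R 4.3.3; functions lmFit and eBayes), by two-sided tests with Benjamini-Hochberg adjustment over all 22640 tested probes, a threshold of 0.05 and 95% intervals. Data were simulated with the means of these 22640 probes and 200 probes changed per run. The SDs used were those that the fit had drawn toward a common value. The fit recovered 82.8% of probes changed by 0.5 and 99.8% of those changed by 1 (log2), with 7.45% false calls. Observed SDs vary more between probes, so these rates do not give the power for a member probe. In each list the brightest tested probe stood for a gene.

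The members and lists were chosen with earlier results of these data known. Named from each list were the genes past the threshold (up to 4), or the 2 with the smallest p. The number of arrays limits the precision of every value. Alternatives covered the filter on dim probes, eBayes options, array weights, a replicate block, background, scaling, averaged probes and each array left out.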

Additional observations from a re-analysis of the deposited data

How the results depend on the processing

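The count of member probes past the threshold was 0 under all 14 alternatives in limma, where 2 stood at an unadjusted p under 0.05 in the main analysis. The smallest adjusted p of any member probe was 0.0832, for Meis2 probe ILMN_1232525 without YapCM-/- replicate 3. The count of 40 probes called in all moved to 26 when only the brightest 25% of probes were tested, 64 with trend and robust eBayes, 138 with the replicate block, and 0 with the background subtracted (2180 at an unadjusted p under 0.05, smallest adjusted p = 0.0536). With 1 array left out it ranged from 6 to 27. The lowest values, 9, 12 and 6, came from leaving out control replicates 1, 2 and 3, and 27, 25 and 27 from leaving out YapCM-/- replicates 1, 2 and 3. The causes were not tested. Under the replicate block the smallest adjusted p of a member was 0.170 (Pdgfrb). Deviations of same-numbered arrays correlated at 0.13, 0.14 and -0.021. Only control replicate 1 correlated best with its own number, while control replicates 2 and 3 did so with YapCM-/- replicates 3 and 1. With 3 arrays per group, these values cannot show whether same-numbered samples share an origin, and the labels do not say.

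Signs changed in 14 of 185 member values, the largest being -0.13 for Foxd1 without YapCM-/- replicate 2. With array weights Meis1 probe ILMN_1218217 was at -0.023. With probes averaged, Meis1 was at 0.092 and Meis2 at 0.11, where their brightest probes alone were at -0.056 and -0.22. With 1 array left out the ranges were -0.13 to 0.25 for Foxd1, -0.17 to 0.028 for Meis1 probe ILMN_1218266, -0.031 to 0.095 for Meis1 probe ILMN_1218217, -0.19 to 0.045 for Meis2 probe ILMN_2774121, and -0.0051 to 0.061 for Pdgfra probe ILMN_2544724. Of 236 list medians under alternatives 31 moved by more than the spread between replicates; that of the other interstitial stroma ran from -0.13 without control replicate 3 to 0.055 without control replicate 2. Dim probes (Tbx18, Alx1, and a clone probe each of Meis1 and Pdgfra) lie close to the array median, where a change is compressed. With the background subtracted, 7 of the 14 member differences grew by over 1.5 times, among them Meis2 probe ILMN_1215821 to 0.45, Meis1 probe ILMN_1248401 to 0.50, Tbx18 to 0.29 and Alx1 to -0.22, none past the threshold. That background was assumed, at the 5th percentile of signal with a floor of 16 on the linear scale. Subtracting it enlarges log2 differences by construction, most at dim probes, so the growth does not show how far changes were compressed.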

Other observations

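Fat4, the stromal protocadherin, is named here after its values were seen. Its probe read 8.88, 9.46 and 8.75 in control and 8.77, 9.47 and 8.85 in YapCM-/- kidneys, a log2 difference of -0.0017 (adjusted p = 0.999). Replicate 2 was highest in both groups, as for Foxd1. Among other stromal genes whose groups did not overlap, also named after their values were seen, Aldh1a2, the retinoic acid synthesis enzyme, read 9.41, 9.24 and 9.46 against 9.99, 9.48 and 9.74, a difference of 0.36 (adjusted p = 0.312) with a dimmer probe at 0.15. Hic1, a transcriptional repressor of mesenchyme, was at 0.25 (adjusted p = 0.427).

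The order seen at the Meis clone probes, with YapCM-/- replicates 1 and 2 above the other 4 arrays, was counted over all tested probes after it had been noticed. In the 929 genes with both kinds of tested probe, it was present at 197 of 1065 clone probes (18.5%) and at 103 of 1476 RefSeq mRNA probes (6.98%), against 8.44% of all tested probes. The median deviation of these clone probes was 0.023 and 0.024 on YapCM-/- replicates 1 and 2 and -0.021 on YapCM-/- replicate 3. What sets clone probes apart on these arrays was not tested.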
